A study of Mus musculus with 4 samples.

Results

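*Akr1c18* encodes the hydroxysteroid dehydrogenase that reduces progesterone at its side chain and so inactivates it. It was described here together with 7 other enzymes and carriers of steroid metabolism or of the same enzyme family (*Star*, *Cyp11a1*, *Hsd11b1*, *Akr1c12*, *Akr1c13*, *Akr1b3* and *Akr1a1*), 8 genes of the 15981 listed in the tables. The set was chosen by symbol, and it was drawn up because *Akr1c18* rose strongly in Tc9 cells in these same libraries. The difference in *Akr1c18* is therefore given as a description with no test, and the other members were listed by function with earlier results of these data known. Each value below is an expected count, the estimated number of reads of a gene, or an FPKM value, that number scaled by gene length and library size.

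The libraries were made from total RNA of tumor-infiltrating CD8+ T cells, 2 libraries of Tc1 and 2 of Tc9 cells. The donor cells were Thy1.1+ Pmel-1 cells on the C57BL/6 background, which all carry a transgenic T cell receptor against one melanoma antigen. Tc9 cells were polarized with IL-4, TGF-β and an antibody against IFN-γ, and Tc1 cells with recombinant human IL-2, and both were then kept in medium with IL-2 until day 5. They were injected i.v. into Thy1.2+ B6 mice carrying subcutaneous B16 melanomas for 10 days and were sorted from the tumors 14 days after transfer. All recipients also received cyclophosphamide, dendritic cells pulsed with peptide, and IL-2, and RNA of several mice was pooled into each library. Ages were not given in the sources used here. No untreated or other T cell subset was sequenced, so each comparison is of Tc9 with Tc1 cells. The p-values measure the spread between these pools.

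Steroid hormones are made from cholesterol. The carrier encoded by *Star* brings cholesterol to the inner mitochondrial membrane, where the side-chain cleavage enzyme encoded by *Cyp11a1* turns it into pregnenolone. Hydroxysteroid dehydrogenases of the *Hsd* and aldo-keto reductase families then interconvert active and inactive steroids. Outside the adrenal gland and gonads, type 2 helper T cells and T cells in tumors have been described to express *Cyp11a1* and to make pregnenolone, and progesterone-reducing activity has long been known in T lymphocytes.

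The tables reach different points of the ordered list of gene identifiers. *Akr1c18* and *Akr1b3* were reached by all 4 libraries, *Cyp11a1* and *Hsd11b1* by Tc1 replicate 2 and both Tc9 libraries, *Star* by the replicate 2 libraries only, and *Akr1c12*, *Akr1c13* and *Akr1a1* by Tc9 replicate 2 only. A gene not listed within the reach of a table was read as 0 counts. Library depth was 30822953 to 31927162 counts, at which 3 counts, the smallest level taken as detectable, were 0.0952 to 0.0956 CPM (counts scaled to a fixed library size). Markers of CD8 T cells were present in the replicate 2 libraries, where the 12 genes summed to 4595 CPM in Tc1 and 4589 CPM in Tc9. Single markers differed in both directions. *Cd3e* and *Cd3g* were higher in Tc9 (log2 fold changes 0.73 and 0.49, adjusted p = 0.0108 and 0.00995 in edgeR's test). *Cd5* and *Cd2* were lower (-0.61 and -0.44, adjusted p = 0.00398 and 0.0107 in edgeR's test). The others of the 8 reached by all 4 libraries did not pass an adjusted p of 0.05. *Ifng* had 15303 counts in Tc1 replicate 2 against 5097 and 4700 in Tc9, and *Il9* had 3 counts against 2601 and 2667, as the labels Tc1 and Tc9 name them. Of the 10 Tc1 and Tc9 markers, *Gzmb* and *Eomes* were also lower in Tc9 (log2 fold changes -1.10 and -0.58). *Irf4* and *Gata3* were higher (1.27 and 2.84). *Prf1* had 4756 and 712 counts in Tc1 and Tc9 replicate 2. *Il9r* went opposite to *Il9*, with 23 counts in Tc1 replicate 2 against 11 and 10 in Tc9. *Spi1* had 2 and 1 counts in the replicate 2 libraries, and *Tbx21* was reached by Tc9 replicate 2 only. Of 11 myeloid markers listed, 7 had 3 counts or fewer in each replicate 2 library, and the list summed to 7.83 CPM in Tc1 and 14.8 CPM in Tc9. *Lyz2* had 0 counts in both and *Cd68*, which T cells also express, made up most of the sum, with 226 and 221 counts in Tc1 against 358 and 439 in Tc9 (log2 fold change 0.84, adjusted p = 0.00295 in edgeR's test).

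*Akr1c18* (gene identifier 105349) lies on the minus strand of mouse chromosome 13, chr13:4132615-4150646 in GRCm38 (the assembly named mm10), and *Akr1c13* (27384, chr13:4191168-4205604, plus strand) and *Akr1c12* (622402, chr13:4268172-4279399, minus strand) lie further along the same chromosome. Because counts can be split between near-identical copies, the first 90 coding bases of the 3 genes are shown, from the start codon in exon 1, with capitals where a base differs from *Akr1c18*.
Akr1c18: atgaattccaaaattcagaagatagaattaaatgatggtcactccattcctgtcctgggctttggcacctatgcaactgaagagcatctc
Akr1c13: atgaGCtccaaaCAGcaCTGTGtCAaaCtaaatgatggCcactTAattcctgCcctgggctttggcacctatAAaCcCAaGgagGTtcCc
Akr1c12: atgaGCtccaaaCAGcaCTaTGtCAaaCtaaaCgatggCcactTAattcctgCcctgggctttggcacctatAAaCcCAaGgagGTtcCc
Both relatives differed from *Akr1c18* at 26 of these 90 bases. Over the 969 coding bases, *Akr1c18* matched *Akr1c13* at 73.9% and *Akr1c12* at 73.8%, whereas *Akr1c12* and *Akr1c13* matched each other at 96.2%. Of the 50-base windows of the *Akr1c18* transcript, 0.608% also occur in a transcript of another gene, *Akr1cl*. The same share was 28.6% for *Akr1c12* and for *Akr1c13*, each with the other, so the split of reads between these 2 genes is uncertain and the non-integer expected counts given below for them carry that uncertainty.

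*Akr1c18* had 4 and 2 counts in Tc1 against 155 and 162 in Tc9. On the FPKM scale its levels were 0.13 and 0.06 in Tc1 replicates 1 and 2, and 4.92 and 5.16 in Tc9 replicates 1 and 2. Both Tc1 libraries were close to the limit of detection, both Tc9 libraries were near 5 FPKM, and the groups did not overlap. The same lack of overlap, in either direction, was found for 70.4% of the 1284 genes compared over all 4 libraries. Summed over libraries, 6 counts stood against 317, a ratio of 53.0 after scaling for depth (95% exact interval 24.1 to 145, counting error only). The fitted log2 fold change was 5.67 (SE 0.35, n = 2 against 2), the second largest among 1284 genes compared over all 4 libraries. The gene was chosen for this rise and passed the filter on low counts only through the Tc9 libraries, where it is high. Its rank is therefore a description and no support for a difference. The measure is bulk RNA, in which fewer expressing cells and less RNA per cell (or more of either) cannot be told apart. The plot of FPKM by gene and library shows these values beside those of the other members.

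**Figure D1:**
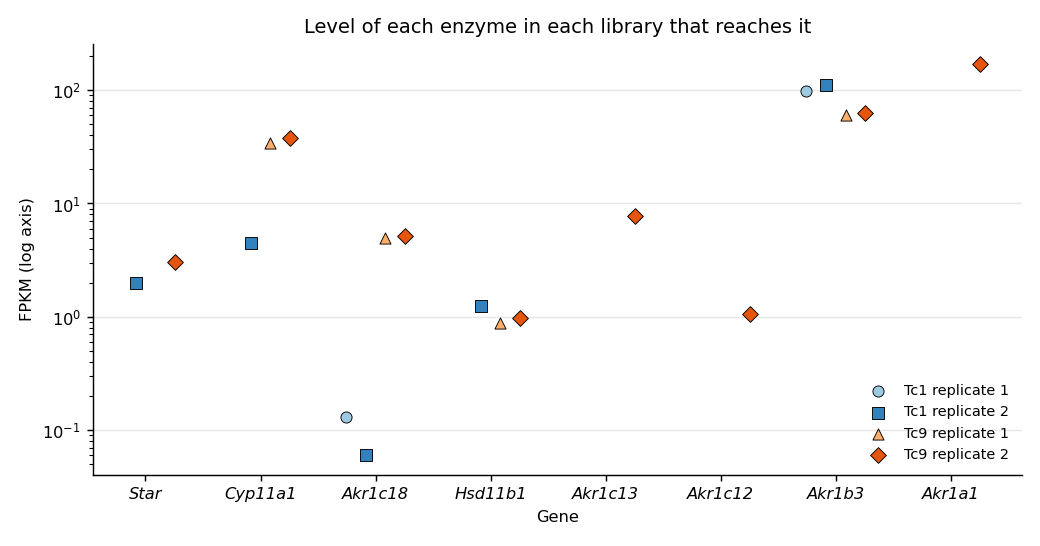
FPKM (y axis, log scale) of the 8 genes (x axis) in each library that reaches them, 1 point per library with no error bars. *Akr1c18* sits at 0.06 and 0.13 in Tc1 and near 5 in Tc9, *Cyp11a1* at 4.48 in Tc1 and above 34 in Tc9, and *Akr1b3* lower in both Tc9 than in both Tc1 libraries.

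*Cyp11a1* (13070, chr9:57998024-58027031, plus strand), the first and rate-setting enzyme of steroid synthesis from cholesterol, was higher in Tc9 cells. It had 249 counts in Tc1 replicate 2 against 1856 and 2036 in Tc9. Its FPKM was 4.48 in the Tc1 library, and 34.42 and 37.96 in the Tc9 libraries. The Tc9 libraries differed little from each other and both lay far above the Tc1 library, although no second Tc1 library reached the gene. Over these 3 libraries 81.9% of the genes tested had both Tc9 libraries on the same side of the Tc1 library. The log2 fold change was 2.97 (SE 0.25), or 7.82-fold, with an adjusted p of 0.00237 in edgeR's quasi-likelihood test over 2622 genes. In this comparison of 3 libraries, 7.51% of the genes tested were called higher and 3.2% lower in Tc9 (adjusted p under 0.05), and *Cyp11a1* ranked 70 by log2 fold change. The test has 1 residual degree of freedom between libraries, and the lone Tc1 library was assumed to vary like the Tc9 libraries. With no filter on low counts no gene of this comparison was called and the adjusted p of *Cyp11a1* was 0.203, with the same log2 fold change.

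*Star* (20845, chr8:25808474-25815982, plus strand), which supplies cholesterol to that enzyme, had 281 counts (1.97 FPKM) in Tc1 replicate 2 and 413 counts (3.05 FPKM) in Tc9 replicate 2. The log2 ratio was 0.55 (95% Wilson interval 0.34 to 0.77, counting error only), with no replicate in either group and no test. Over the genes tested in 4 libraries, the 95th percentile of the log2 gap between replicates was 0.67 for the Tc9 and 0.52 for the Tc1 libraries, so the ratio lay between these values. The length used for *Star* in the tables, 4589 and 4531 bases, exceeds the 4046 bases of its longest transcript in GENCODE and includes a transcript that the authors' provider assembled.

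*Hsd11b1* (15483, chr1:193221640-193264045, minus strand), which regenerates active glucocorticoid from its inactive keto form, was low in every library that reached it. It had 49 counts in Tc1 replicate 2 against 34 and 37 in Tc9, or 1.24, 0.88 and 0.97 FPKM. The log2 fold change was -0.46 (SE 0.33) with an adjusted p of 0.415 in edgeR's quasi-likelihood test, and so did not pass, with 1 Tc1 library in the fit.

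The remaining members belong to the aldo-keto reductases. *Akr1b3* (11677, chr6:34303930-34317489, minus strand), the aldose reductase that turns glucose into sorbitol, had 3931 and 4482 counts in Tc1 against 2351 and 2425 in Tc9. Its FPKM was 97.72 and 111.65 in Tc1, and 59.93 and 62.3 in Tc9. Both Tc9 libraries lay below both Tc1 libraries, where 70.4% of the 1284 genes tested had groups apart in either direction. The log2 fold change was -0.81 (SE 0.12), or 1.76-fold lower in Tc9, with an adjusted p of 0.000753 in edgeR's quasi-likelihood test over 1284 genes. There 17.4% of genes were called higher and 16.7% lower in Tc9. Without Tc1 replicate 2 the value was -0.71 and the call was lost (adjusted p = 0.0638 in the same edgeR test). Of the 50-base windows of its transcript, 59.9% also occur in transcripts of 4 predicted genes (*Gm12138*, *Gm43855*, *Gm6644* and *Gm6736*), so part of its reads may have been assigned with uncertainty.

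*Akr1a1* (58810, chr4:116636510-116651674, minus strand), the aldehyde reductase, had 6855 counts and 171.66 FPKM in Tc9 replicate 2. *Akr1c13* had an expected count of 263.6 (7.72 FPKM) and *Akr1c12* of 35.4 (1.05 FPKM) in that library. No Tc1 library reached these 3 genes, and no difference is given for them.

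Per length, the order of the 8 genes in Tc9 replicate 2 was *Akr1a1*, *Akr1b3*, *Cyp11a1*, *Akr1c13*, *Akr1c18*, *Star*, *Akr1c12* and *Hsd11b1*. The 95% exact Poisson intervals of neighbours (counting error only) were apart for all but the last pair, with 0.733 to 1.46 FPKM for *Akr1c12* and 0.683 to 1.34 for *Hsd11b1*. *Akr1c18* (4.40 to 6.02) lay below *Akr1c13* (6.82 to 8.71), a level that the uncertain split with *Akr1c12* touches. In Tc1 replicate 2, the 5 genes reached were ordered *Akr1b3*, *Cyp11a1*, *Star*, *Hsd11b1* and *Akr1c18*. *Akr1c18* was thus the lowest of them in the Tc1 library and lay above *Star* and *Hsd11b1* in the Tc9 library.

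The upstream sequence of the 2 members with the largest differences is given, in 5′ to 3′ direction of the gene, from RefSeq on GRCm38.p6 (6 of the 8 members matched an entry, *Cyp11a1* with 2 start sites). The 250 bases before each start were searched on both strands for STAT sites, TTC and GAA with 3 bases between them (TTCNNNGAA) or with 4, the spacing that STAT6 prefers, and for CAAGGTCA, the site of the steroidogenic factor NR5A1. Capitals mark a match. The windows are chr13:4150647-4150896 for *Akr1c18* and chr9:57997774-57998023 and chr9:58014702-58014951 for *Cyp11a1*.
Akr1c18: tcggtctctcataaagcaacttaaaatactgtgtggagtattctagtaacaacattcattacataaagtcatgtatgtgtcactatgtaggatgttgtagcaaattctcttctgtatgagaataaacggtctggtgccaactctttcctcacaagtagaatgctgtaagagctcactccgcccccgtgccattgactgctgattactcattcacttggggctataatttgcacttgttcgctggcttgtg
Cyp11a1, first start: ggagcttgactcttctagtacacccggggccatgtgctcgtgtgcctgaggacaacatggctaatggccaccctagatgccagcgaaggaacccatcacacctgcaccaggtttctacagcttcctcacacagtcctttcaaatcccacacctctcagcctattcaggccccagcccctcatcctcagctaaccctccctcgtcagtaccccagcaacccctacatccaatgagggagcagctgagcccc
Cyp11a1, second start: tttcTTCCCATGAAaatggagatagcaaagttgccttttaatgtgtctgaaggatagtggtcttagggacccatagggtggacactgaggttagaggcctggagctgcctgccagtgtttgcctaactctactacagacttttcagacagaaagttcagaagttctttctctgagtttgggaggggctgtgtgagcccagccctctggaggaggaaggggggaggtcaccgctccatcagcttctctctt
These motifs do not occur in the *Akr1c18* window or in the first *Cyp11a1* window. The window before the second *Cyp11a1* start holds 1 STAT site with 4 bases between, which begins at position -246 from the start. In the same 250 bases of 32851 RefSeq promoter windows, 7.02% hold TTCNNNGAA, 5.85% the site with 4 bases between and 1.33% CAAGGTCA. The windows of *Akr1c12*, *Akr1c13*, *Akr1a1* and *Hsd11b1* hold no match.

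The wider set of steroid-synthesizing and interconverting enzymes could be tested only in part. Of 47 such genes besides *Akr1c18*, 26 were listed in a table, 7 of them in the reach of Tc9 replicate 2 alone, and 9 passed the filter for testing. Over 4 libraries none of 4 was called, beside 17.4% of all genes higher and 16.7% lower, and over 3 libraries *Cyp11a1* was called higher among 5, beside the 7.51% of all genes called higher there. The median log2 fold change of the 9 was 0.05, beside 0.0014 and 0.05 over all genes tested in 4 and in 3 libraries. Several genes of the classical route after pregnenolone were read as 0. The *Hsd3b* genes (*Hsd3b1* to *Hsd3b6*), the family that includes the enzymes that turn pregnenolone into progesterone, are listed in none of the 3 tables that reach them. The same holds for *Cyp17a1* and *Cyp21a1*, which act on pregnenolone and progesterone, for *Cyp19a1* (aromatase) and *Cyp11b2* (aldosterone synthase), and for *Cyp11b1*, the last step to corticosterone, in all 4 tables. A count of 0 in a library of this depth allows a level of up to 3 counts. Enzymes of the list with other roles were expressed, among them *Hsd17b4*, which acts in peroxisomal β-oxidation, at 1274 counts in Tc1 against 1347 and 1288 in Tc9 (adjusted p = 0.896 in edgeR's test). *Hsd17b7*, which also acts in cholesterol synthesis, had 1231 counts in Tc1 against 1975 and 1735 in Tc9 and did not pass (log2 fold change 0.59, adjusted p = 0.163 in edgeR's test). *H6pd*, which supplies NADPH to the *Hsd11b1* product, had 1304 and 1240 counts in Tc1 against 1435 and 1614 in Tc9 (log2 fold change 0.26, adjusted p = 0.107 in edgeR's test). In the range of the replicate 2 libraries alone, 2 genes of the list had 30 or more counts in one of them. *Sts*, the sulfatase that frees steroids from their sulfates, went from 26 to 119 counts (log2 ratio 2.11, 95% Wilson interval 1.59 to 2.80) and *Sult1a1*, a sulfotransferase, from 8 to 31 (1.72, interval 0.86 to 3.05). Both reached 30 counts only in the Tc9 library, where they are high, so their ratios are no support for a difference. These ratios compare single libraries. Among 3313 genes compared so, 7.97% had a log2 ratio of at least 1 and 3.89% of at most -1.

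Among the other aldo-keto reductases, 5 besides *Akr1c18* were tested. Over 4 libraries *Akr1b3* was called lower among 2, beside 16.7% of all genes, and over 3 libraries *Kcnab3* was called higher among 3, beside 7.51%. *Kcnab3*, a β subunit of voltage-gated potassium channels with an aldo-keto reductase fold, had 2 counts in Tc1 replicate 2 against 39 and 36 in Tc9. Its summed ratio was 18.8 (95% exact interval 5.02 to 158, counting error only). It passed the filter only through the Tc9 libraries, where it is high, so its call is no support for a difference. *Kcnab2*, another β subunit, had 7473 counts in Tc1 against 6998 and 8650 in Tc9, with overlapping groups. *Akr1b8*, a reductase of lipid aldehydes, had 101 counts in Tc1 against 58 and 83 in Tc9 (log2 fold change -0.52, adjusted p = 0.351 in edgeR's test). *Akr7a5* had 227 and 274 counts in Tc1 against 200 and 326 in Tc9, also overlapping. *Akr1c14*, another hydroxysteroid dehydrogenase of the gene cluster, had 1 and 0 counts in Tc1 against 0 and 0 in Tc9.

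**Figure D2:**
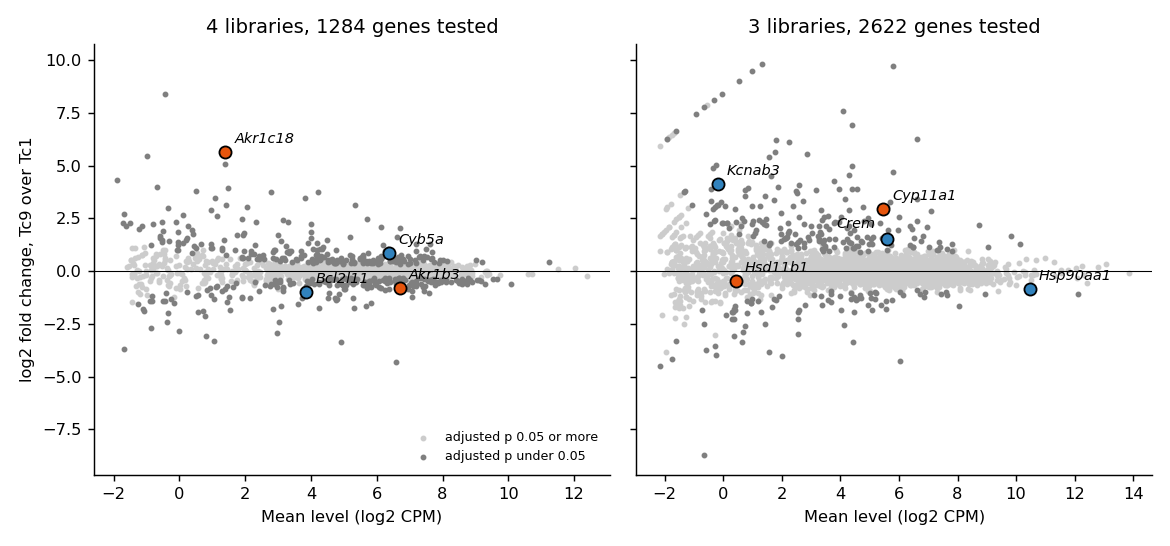
Fitted log2 fold change (y axis) against mean log2 CPM (x axis) for each gene tested in 4 libraries (left) and in 3 (right), 1 point per gene, dark grey where the adjusted p was under 0.05. Orange points are members of the set and blue points are genes of the related lists, with *Akr1c18* at 5.67, *Cyp11a1* at 2.97, *Akr1b3* at -0.81 and *Hsd11b1* at -0.46.

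Among genes of cholesterol delivery and electron supply for steroid synthesis, 12 of 25 were tested, with a median log2 fold change of 0.03. The list also holds electron donors to microsomal P450 enzymes and enzymes that store cholesterol, so it is wider than the supply of *Cyp11a1*. Over 4 libraries edgeR called 1 of 3 higher, beside 17.4% of all genes, and over 3 libraries none of 9, beside 7.51% higher and 3.2% lower. *Cyb5a*, an electron donor to microsomal P450 enzymes, had 1849 and 1857 counts in Tc1 against 3693 and 3100 in Tc9 (log2 fold change 0.88, adjusted p = 0.000652 in edgeR's test). Without Tc1 replicate 1 the adjusted p of *Cyb5a* was 0.0656. *Fdx1* and *Fdxr*, which pass electrons to *Cyp11a1* itself, had 208 and 504 counts in Tc1 replicate 2, against 230 and 456 in Tc9 replicate 1 and 207 and 645 in Tc9 replicate 2, and the groups overlapped for both. *Tspo*, the outer membrane translocator protein, had 912 and 983 counts in Tc1 against 763 and 902 in Tc9 (adjusted p = 0.290 in edgeR's test). In the replicate 2 libraries, *Soat1*, which esterifies cholesterol for storage, went from 730 to 1467 counts (log2 ratio 1.01, 95% Wilson interval 0.88 to 1.14), the only one of 7 genes with a ratio of at least 1, beside 7.97% of all genes compared. A ratio above 0 was found for 5 of the 7, beside 50.9% of all genes.

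Of 18 transcription factors known from steroid synthesis in adrenal and gonad, 11 were listed. *Nr5a1* and *Nr5a2* are listed in neither of the replicate 2 tables, which reach them, and *Nr0b1* is listed in none of the 4. *Gata4* had 0 counts in Tc1 against 0 and 1 in Tc9. Of the 4 factors tested, 1 was over 4 libraries and not called, beside 17.4% of all genes higher and 16.7% lower there, and 1 of the 3 over 3 libraries was called higher, beside 7.51% of all genes. This was *Crem*, a cAMP-responsive regulator, with 674 counts in Tc1 replicate 2 against 2121 and 1755 in Tc9 (log2 fold change 1.52, adjusted p = 0.0156 in edgeR's test). *Nr4a1*, an orphan receptor induced by T cell receptor signals, had 352 counts in Tc1 against 245 and 273 in Tc9 (adjusted p = 0.263 in edgeR's test).

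On the receiving side, *Nr3c1*, the glucocorticoid receptor, had 2453 counts in Tc1 against 3542 and 3044 in Tc9 and did not pass (log2 fold change 0.43, adjusted p = 0.289 in edgeR's test). *Pgr*, the nuclear receptor for the substrate of the *Akr1c18* product, is listed in neither replicate 2 table. *Hsp90aa1*, a chaperone that holds steroid receptors ready for ligand, had 63903 counts in Tc1 against 38158 and 31913 in Tc9 (log2 fold change -0.87, adjusted p = 0.0481 in edgeR's test) and was lost on the log2(FPKM + 0.1) scale (adjusted p = 0.0713 in limma). In all, 5 of 28 genes of receptors and cochaperones were tested, each over 3 libraries, and edgeR called 1 lower, beside 3.2% of all genes. The median log2 fold change of the 5 was -0.31. In the replicate 2 libraries, *Vdr*, the vitamin D receptor, went from 68 to 183 counts (log2 ratio 1.40, 95% Wilson interval 1.03 to 1.83), and *Ncoa3*, a receptor coactivator, from 4136 to 10672 (1.37, interval 1.32 to 1.42). These were the 2 of 8 genes with a ratio of at least 1, beside 7.97% of all genes compared. A ratio above 0 was found for 7 of the 8, beside 50.9% of all genes. *Stip1*, a cochaperone, went from 15591 to 8224 counts (log2 ratio -0.92). Single libraries were compared, with no test.

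Of the genes induced by glucocorticoids, 10 were tested, with a median log2 fold change of 0.25. Over 4 libraries 1 of 3 was called higher and 1 lower, beside 17.4% and 16.7% of all genes, and over 3 libraries none of 7 was called, beside 7.51% higher and 3.2% lower. *Tsc22d3*, the glucocorticoid-induced leucine zipper, had 698 counts in Tc1 against 868 and 770 in Tc9 (adjusted p = 0.529 in edgeR's test), and *Fkbp5*, which restrains the glucocorticoid receptor, had 4787 against 4491 and 3862 (adjusted p = 0.614 in edgeR's test). *Bcl2l11*, a promoter of cell death, had 614 and 588 counts in Tc1 against 331 and 278 in Tc9 (log2 fold change -0.98, adjusted p = 0.000652 in edgeR's test). *Zfp36l2*, an RNA-binding protein, had 6201 and 5196 counts in Tc1 against 7286 and 8047 in Tc9 (log2 fold change 0.43, adjusted p = 0.0213 in edgeR's test), a call lost without Tc1 replicate 1 (adjusted p = 0.167) or Tc1 replicate 2 (adjusted p = 0.473 in edgeR). In the replicate 2 libraries, *Sgk1*, a kinase, went from 270 to 1625 counts (log2 ratio 2.58, 95% Wilson interval 2.40 to 2.78). It was the only 1 of 10 genes with a ratio of at least 1, beside 7.97% of all genes compared. A ratio above 0 was found for 8 of the 10, beside 50.9% of all genes, with a median of 0.13. *Nfkbia* and *Dusp1* had ratios of -0.55 and -0.43. Single libraries were compared, with no test. The calls of *Kcnab3*, *Crem* and *Hsp90aa1* over 3 libraries were lost with no filter on low counts. When library size was taken from the shared range alone, 59.9% of the calls over 3 libraries were higher in Tc9, beside 70.1% in the fit used here.

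**Figure D3:**
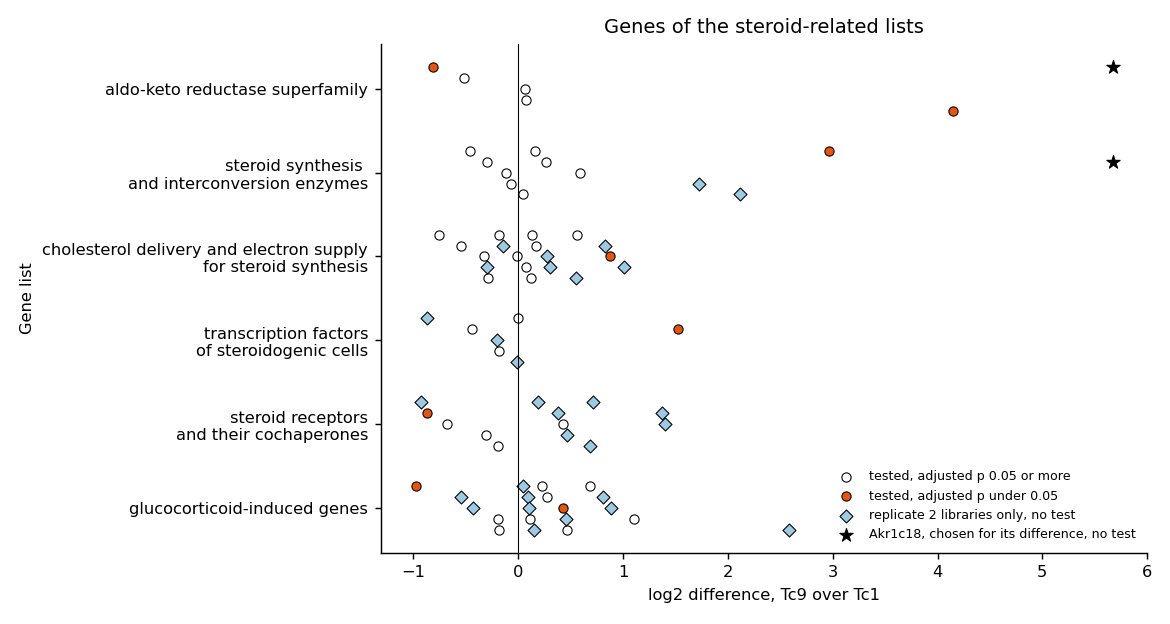
log2 difference of Tc9 over Tc1 (x axis) for each gene of the 6 lists (y axis), 1 point per gene, orange where tested and past an adjusted p of 0.05, white where tested and not past it, blue diamonds for ratios of the replicate 2 libraries with no test. The star is *Akr1c18* at 5.67, and most other genes lie within 1 of 0.

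By the distance between centred log2 CPM over the 4 libraries (prior count 2), the genes most like *Akr1c18* among those tested were *Ace*, *Igflr1*, *C3*, *Ahrr* and *Acvrl1*, at distances of 0.751, 1.25, 1.32, 1.38 and 1.40, where *Akr1c18* itself lies 5.05 from a flat profile. *Ace*, which encodes angiotensin-converting enzyme, had 0 counts in each Tc1 library against 36 and 49 in Tc9. *Igflr1*, a receptor of the TNF receptor family, had 6 and 3 counts in Tc1 against 76 and 236 in Tc9, so its Tc9 libraries differed more than those of *Akr1c18*. *C3*, the central complement component, had 86 and 73 counts in Tc1 against 1011 and 1159 in Tc9. *Ahrr*, the repressor of the aryl hydrocarbon receptor, had 11 and 10 counts in Tc1 against 173 and 151 in Tc9. *Acvrl1*, a type I receptor of the TGF-β family, had 31 and 28 counts in Tc1 against 365 and 439 in Tc9.

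**Figure D4:**
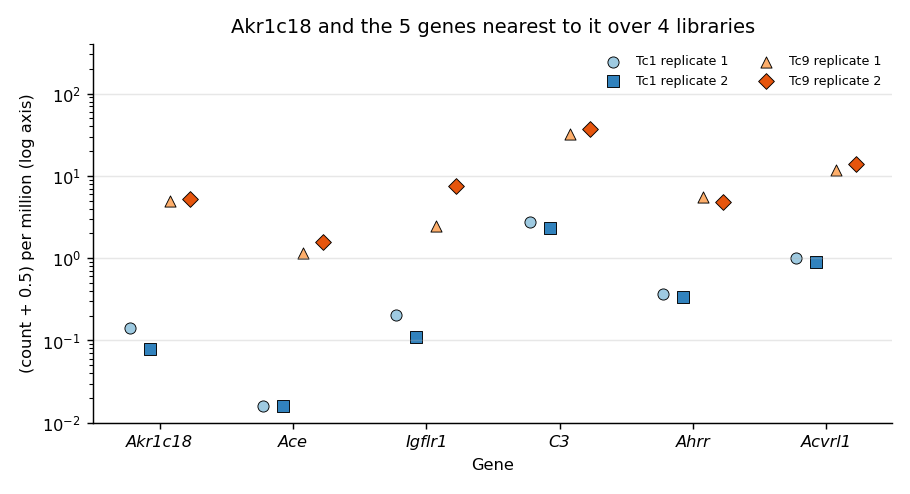
CPM after adding 0.5 to each count (y axis, log scale) of *Akr1c18* and its 5 nearest genes (x axis), 1 point per library with no error bars. In each of the 6 genes both Tc9 points lie above both Tc1 points, and the Tc9 points of *Igflr1*, at 76 and 236 counts, are the furthest apart.

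Mast cells and basophils also express steroid-metabolizing genes, and their markers were read in the same libraries. Of 7 markers listed, 5 had 3 counts or fewer in each replicate 2 library, among them *Cpa3*, with 1 count in Tc1 and 3 and 0 in Tc9, *Mcpt8* and *Fcer1a*. The list summed to 4.97 CPM in Tc1 and 12.2 CPM in Tc9, nearly all from *Kit*, with 142 counts in Tc1 against 389 and 366 in Tc9 (log2 fold change 1.41, adjusted p = 0.0180 in edgeR's test), a receptor that activated T cells can also express. *Hdc*, histidine decarboxylase, had 9, 11 and 16 counts in the same order. The B cell list summed to 5.48 and 15.6 CPM in the replicate 2 libraries, nearly all from *Cd79b*, with 155 counts in Tc1 against 380 and 473 in Tc9 (log2 fold change 1.46, adjusted p = 0.0219 in edgeR's test). The CD4 T cell list summed to 11.9 and 60.9 CPM. *Zbtb7b*, with 283 and 258 counts, made up most of it in Tc1, and *Foxp3*, with 35 and 1592 counts, most of it in Tc9. *Cd4* itself had 50 and 45 counts in Tc1 against 56 and 58 in Tc9 (log2 fold change 0.27, adjusted p = 0.406 in edgeR's test). *Cd40lg* had 11 and 2 counts in Tc1 and Tc9 replicate 2. The NK cell list summed to 95.4 and 60.1 CPM, nearly all from *Eomes*, which CD8 T cells also express, and its other 5 genes had 8 counts or fewer in each replicate 2 library. The melanoma list summed to 2.61 and 4.30 CPM, the fibroblast list to 0.637 in each and the endothelial list to 14.8 and 14.5. The part of these lists in the differences of *Akr1c18* and *Cyp11a1* was not tested.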

How the data were processed

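RNA-Seq libraries of Tc1 and Tc9 cells sorted from tumors (2 per group, numbered as in the labels) were used. For each gene the authors deposited an expected count with no normalization, an FPKM value scaled by gene length and library size, and a length in bases. The labels name genome build mm10, and the aligner and counter are not given in the sources used here. The tables used here list 1535 and 7408 genes for Tc1 replicates 1 and 2 and 3152 and 15442 for Tc9 replicates 1 and 2, each to a different identifier, and 1 row cut short was dropped. A design that assumed complete tables was therefore applied within shared ranges. Rows that the provider added without a gene symbol held 7.30% of the counts of Tc9 replicate 2. Depth was computed as count over FPKM, relative to Tc9 replicate 2, for genes of at least 500 counts, and TMM factors (0.983 to 1.02) came from the 4-library range.

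Rounded expected counts were tested with the quasi-likelihood test of edgeR 4.0.16 (R 4.3.3), after filterByExpr (minimum count 10), and two-sided p-values were adjusted by Benjamini-Hochberg over all genes tested. The standard error was the log2 fold change divided by the square root of the F statistic. With 2 libraries per group an exact permutation test of 1 gene cannot go below p = 0.333. Ratios of the replicate 2 libraries used a prior count of 2. The steps were tested on simulated data. Alternatives were DESeq2 1.42.0, limma 3.58.1 on log2(FPKM + 1) or log2(FPKM + 0.1), other filters and scalings, a replicate block and each library left out. TMM factors of the 3-library range were an alternative added after seeing the data.

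The members, gene lists and marker lists were chosen with earlier results of these data known. Genes named are the 8 members, up to 5 genes per list and direction past an adjusted p of 0.05, list genes of the replicate 2 range with at least 30 counts in one library and a log2 ratio of at least 1 in size, the 5 genes nearest to *Akr1c18*, and markers where a result turns on them. Some list genes are not reported here and were left out of the lists, as were second names of genes already in them. Other list genes were named for their role after their values were seen. Coding sequences came from GENCODE release 21 for mouse, promoters from RefSeq on GRCm38.p6, and alignments from Biopython 1.88.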

Additional observations from a re-analysis of the deposited data

How the results depend on the processing

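Of 91 values of the main results under alternatives, 64 were unchanged, 25 moved further and 2 no longer passed. Unchanged means the same direction and side of the threshold for a tested value, a shift within the replicate or counting error for an untested one, and within 1.5 times for a count of genes. No fold change or ratio changed sign. For the other named list genes 52 of 60 values kept the call and 8 did not. The cause was not tested. Over 4 libraries, with no filter on low counts, 130 genes were higher and 110 lower in Tc9. With 1 library left out, 72 to 405 genes were higher and 39 to 405 lower. The calls in both directions were 111 without Tc1 replicate 1, 136 without Tc1 replicate 2, 810 without Tc9 replicate 1 and 693 without Tc9 replicate 2, beside 438 with all, and the lone library was assumed to vary like the other group. The replicate block gave 231 genes higher and 213 lower, and 406 of these 444 were also called without the block. The deviations of libraries with the same number correlated at -0.0645 across genes, so no effect shared by the number was seen. With 2 libraries per group this cannot show whether the numbers pair the samples, and the sources used here do not say. The block changed no call of *Akr1b3*, *Cyb5a*, *Bcl2l11* or *Zfp36l2*.

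Over 3 libraries, edgeR with no filter called 0 genes higher and 0 lower, with 598 at an unadjusted p under 0.05 and a smallest adjusted p of 0.203, where DESeq2 on the filtered genes called 217 higher and 121 lower. A minimum count of 30 gave 305 higher and 154 lower, no TMM factors 371 and 163, library size from the shared range 323 and 216, and TMM factors of the 3-library range, chosen after seeing the data, 328 and 211. At an adjusted p under 0.1, 144 were lower.

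The log2 fold change of *Akr1c18* was 2.46 on the log2(FPKM + 1) and 4.74 on the log2(FPKM + 0.1) scale, which understate changes of low genes, and 5.27 to 6.22 with 1 library left out. That of *Akr1b3* ranged from -0.91 to -0.71 with 1 library left out, and its adjusted p over all alternatives from 2.753e-08 to 0.0638. That of *Cyp11a1* was 2.97 with no filter, with an adjusted p of 0.203 in edgeR, the highest over its alternatives (lowest 1.631e-25, DESeq2). The adjusted p ranged from 2.844e-09 to 0.0656 for *Cyb5a*, from 0.000724 to 0.473 for *Zfp36l2* and from 0.000271 to 0.254 for *Hsp90aa1*. No library of the Tc1 group could be left out for *Cyp11a1* or *Hsd11b1*, and none for *Star*. Depth limits *Akr1c18* in Tc1, where it had 6 counts over both libraries.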
